A study of Rattus norvegicus with 12 samples.

Results

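The BCL2 family of apoptosis regulators was followed in cultured rat retinal ganglion cells exposed to endothelins. Its members were taken as every probe set on the array annotated to 1 gene symbol out of a list of 10: Bcl2, Bcl2l1, Bcl2l2, Mcl1, Bax, Bak1, Bcl2l11, Bad, Bid and Bbc3. This gave 16 of the 31042 probe sets, for 9 of the 10 genes. Bax, a pore-forming effector, had no probe set of its own, because the 1 probe set that names it also names a second gene, and it was not analysed here. Of the 16 probe sets, 8 passed the filter on dim signals (a mean log2 signal at or above the median probe set, which is a signal of 147.5), and they cover 7 genes.

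The cells came from Sprague-Dawley pups of postnatal days 4 to 6, were panned by antibody to their surface protein Thy-1.1, and grew for 7 days without serum but with forskolin and the neurotrophic factors CNTF and BDNF. The neurotrophic factors were then withdrawn overnight, and 3 groups received the peptides ET-1, ET-2 or ET-3 (endothelins) at 100 nM for 24 h. The remaining cultures got no endothelin, and their overnight withdrawal is not spelled out; the labels name them untreated in one field and vehicle-treated in another. Each of the 4 groups had 3 arrays (Affymetrix Rat Genome 230 2.0), numbered 1 to 3 as biological replicates, 12 arrays in all.

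Proteins of this family decide whether the outer mitochondrial membrane is opened during apoptosis. Bcl2, Bcl2l1 (Bcl-xL), Bcl2l2 (Bcl-w) and Mcl1 are guardians that hold the membrane closed, Bax and Bak1 form the pores, and the BH3-only proteins Bcl2l11 (Bim), Bad, Bid and Bbc3 (Puma) sense stress and free or activate the pore formers. In mice, loss of Bax protects ganglion cell bodies after injury to the optic nerve, and signalling through the endothelin B receptor has been linked to ganglion cell loss in rodents.

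Of 16 listed retinal ganglion cell markers, 14 had a named probe set and all 14 lay above the filter. Their summed signal, mostly Sncg, Stmn2, Gap43 and Slc17a6, ran from 95173 to 138345 with ET-1, 98831 to 140386 with ET-2, 94691 to 148566 with ET-3 and 94537 to 136171 in untreated cultures. Of these markers, Eomes fell by 0.32 ± 0.07 for the mean of the endothelins on the log2 scale (limma with the replicate block, adjusted p = 0.0224), and Isl1, at -0.30 ± 0.09, was lower in 9 of 9 pairs but did not pass (limma adjusted p = 0.0755). Eomes was the 1 marker of the 14 that passed. The list's sum was higher in 6 of 9 pairs of one replicate number and lower in 3. Slc17a6 was higher in 7 of 9 pairs, Nefh and Rbpms were lower in 7, and none of these passed. Of the other cell types, 6 of 8 microglia and macrophage markers and 4 of 8 amacrine and bipolar markers lay above the filter. For the oligodendrocyte lineage it was 2 of 6, for endothelium 1 of 6 and for photoreceptors 0 of 5. The oligodendrocyte lineage sum was higher in 9 of 9 pairs of one replicate number. Of its 2 markers above the filter, Pdgfra was higher in 6 of 9 pairs and Mbp lower in 6, and neither passed. The arrays of replicate number 1 stood apart in the collagens, Dcn and Lum, which make up most of the summed pericyte, smooth muscle and fibroblast markers there. That sum was 51991 with ET-1, 55688 with ET-2, 51416 with ET-3 and 46934 untreated. Under numbers 2 and 3 it lay between 13933 and 18916 with the endothelins and at 15492 and 12560 untreated. Pdgfrb, a small part of the sum, was 786 to 799 with the endothelins under number 1 against 121 to 344 under the others. Untreated it was 256 against 191 and 91. Acta2 and Tagln of the same list were instead lowest under number 1 in every group. From other lists, Gja1 was 4556 to 11276 under number 1 against 617 to 2505 under the others, and Pdgfra 4385 to 5017 against 270 to 674. The sum of astrocyte and Müller glia markers was 20651 to 32064 over the 9 endothelin arrays against 16331 to 22599 in untreated cultures, and higher in 9 of 9 pairs of one replicate number. Of the 10 markers 5 lay above the filter: Clu, Vim and Gja1 rose (limma, adjusted p from 4.02e-05 to 0.00297), whereas Glul and Slc1a3 were each lower in 6 of 9 pairs and did not pass. The defining markers Gfap, Aqp4, Aldh1l1, S100b and Rlbp1 lay below the filter. These arrays measure whole cultures, so fewer cells of a type and less RNA per cell cannot be told apart.

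Bcl2l11 was the 1 member that passed the test. Its encoded protein, Bim, is a BH3-only activator of Bax and Bak1 whose transcript is known to rise in neurons deprived of trophic factors. The probe set 1388742_at had signals of 1239, 1564 and 781 with ET-1 in replicates 1, 2 and 3, of 1311, 1581 and 882 with ET-2, and of 1232, 1556 and 814 with ET-3, against 1599, 1866 and 992 in untreated cultures. The groups overlap when the arrays are pooled, since replicate 3 was low and replicate 2 high in every group, but under each replicate number all 3 endothelin arrays lay below the untreated one. The 9 differences on the log2 scale ran from -0.38 to -0.17. Of all tested probe sets, 8.05% were below untreated in all 9 such pairs.

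Replicate numbers were fitted as a block (limma, Benjamini-Hochberg adjustment across the 15521 probe sets above the filter, threshold 0.05). The p-values therefore measure the spread left between these arrays once replicate numbers are taken off. In this fit Bcl2l11 fell by 0.32 ± 0.06 with ET-1 on the log2 scale (SE, n = 3 arrays a group, limma adjusted p = 0.0195) and by 0.31 ± 0.06 with ET-3 (adjusted p = 0.0204). With ET-2 its log2 change was -0.23 ± 0.06, which missed the threshold (limma adjusted p = 0.0917). Averaged over the 3 endothelins, Bcl2l11 fell by 0.29 ± 0.05 (95% interval -0.40 to -0.18; limma adjusted p = 0.00634), to 0.819 of the untreated level. It was the 1 member that differed among the 4 groups as a whole (limma F test, adjusted p = 0.0467), as did 1.32% of all tested probe sets. Without the replicate block the change was the same and its SE with ET-1 was 0.34, so Bcl2l11 did not pass with any endothelin (limma adjusted p = 0.9999 with ET-1). That fit called 0 of the 15521 probe sets in each comparison; an unadjusted p under 0.05 was held by 1.53% of them with ET-1, 1.44% with ET-2, 1.91% with ET-3 and 2.56% for the mean, and by 0 members. Without untreated replicate 1 the mean change was -0.26 (limma adjusted p = 0.0455), and the changes with ET-1 and ET-3 were -0.29 and -0.28 with adjusted p = 0.0712 and 0.0716. The calls with ET-1 and ET-3 also ended without any 1 replicate number, and each ended without any 1 of that endothelin's own 3 arrays (limma adjusted p between 0.0555 and 0.221). The mean lost its call without replicate number 1 (adjusted p = 0.116) or 2 (0.0831). Several markers moved with this result, with the replicate block. Higher in 9 of 9 pairs were the glial Clu, Vim and Gja1 and the mural cell markers Acta2, Tagln and Pdgfrb, and all 6 passed for the mean of the endothelins. Lower in 9 of 9 pairs, like Bcl2l11, were Eomes and Isl1 of the ganglion cell list, Col3a1, the endothelial Kdr and the amacrine Gad2. Of these genes Eomes, Col3a1 and Kdr passed, where 1.35% of all tested probe sets passed lower. The endothelial sum, mostly Kdr, and the amacrine and bipolar sum, mostly Calb2, were also lower in 9 of 9, and Calb2 did not pass. Other markers of these lists varied. Col1a2 was higher in 6 of 9 pairs, Dcn and Lum lower in 6, Slc6a9 lower in 5, and none of these passed. Below the filter, Cspg4 was higher in 9 of 9 pairs, Cldn5, Prkca and the oligodendrocyte marker Mog in 8, and Aldh1l1 in 7. Rlbp1 was lower in 8 of 9 pairs, and Pecam1 and Grm6 in 7. The part of these cell types in the Bcl2l11 values was not tested.

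**Figure D1:**
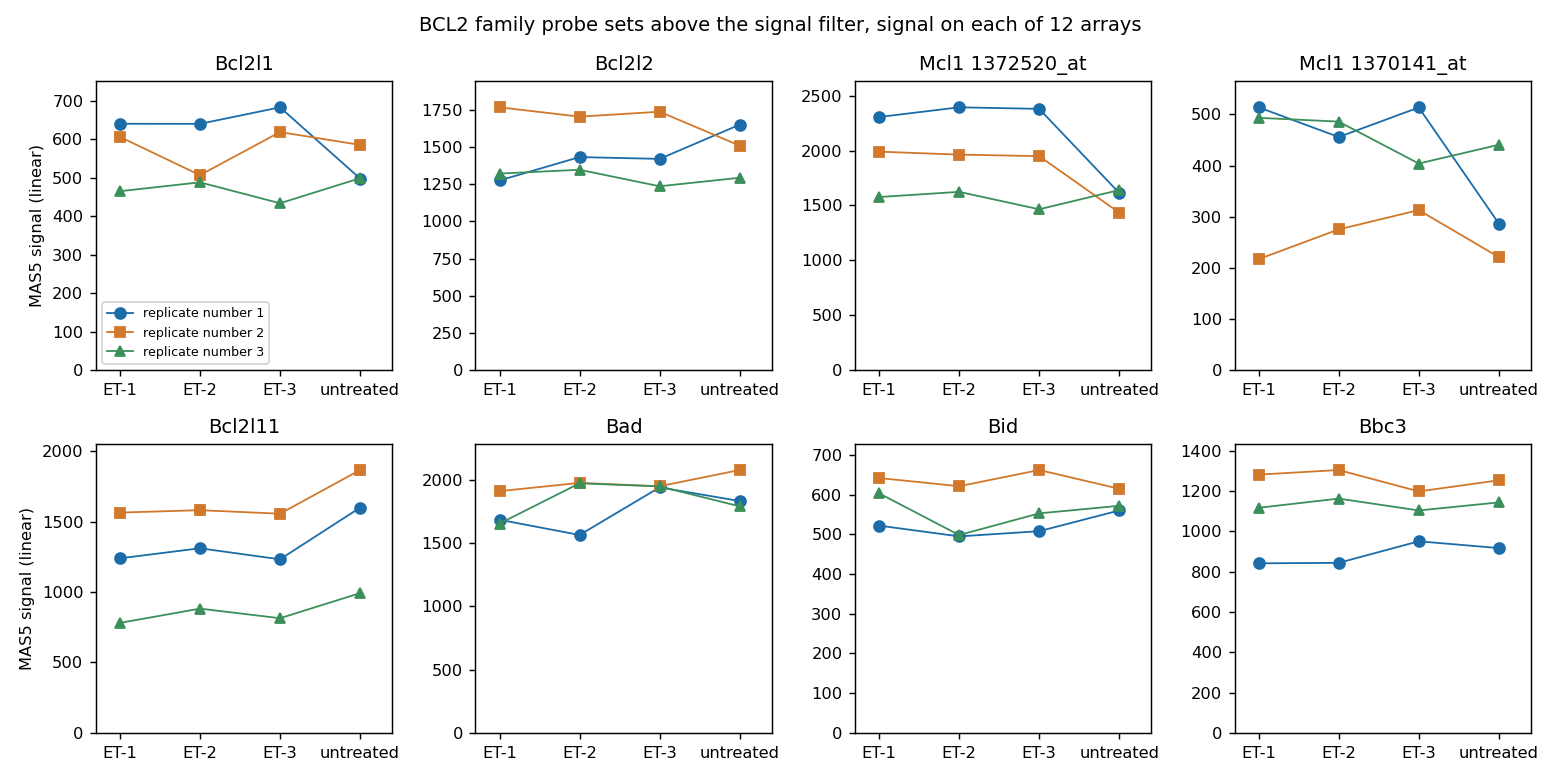
MAS5 signal on a linear axis from 0 (vertical) for the 8 BCL2 family probe sets above the filter, in ET-1, ET-2, ET-3 and untreated arrays (horizontal). Points are single arrays and lines join arrays of one replicate number; for Bcl2l11 the untreated point is the highest on all 3 lines, at 1599, 1866 and 992.

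The other 2 probe sets of Bcl2l11 lay below the filter and were not tested. Probe set 1370787_at had signals of 70.3, 75.4 and 67.6 with ET-1, 92.7, 100.4 and 110.1 with ET-2 and 37.2, 66.2 and 79.2 with ET-3, against 60.0, 56.3 and 143.2 in untreated cultures. ET-2 lay above ET-1 and ET-3 under each replicate number, while the untreated array was the lowest under number 2 and the highest under number 3. Of the 9 pairs of one replicate number, 5 were higher with endothelin. With all 31042 probe sets tested, the mean log2 change of 1370787_at from untreated was -0.07 ± 0.27 (limma adjusted p = 0.934). It was -0.14 ± 0.33 with ET-1, 0.36 ± 0.33 with ET-2 and -0.44 ± 0.33 with ET-3. In the same fit the log2 difference of ET-3 from ET-2 was -0.80 ± 0.33 with an unadjusted p of 0.0306 (limma adjusted p = 0.996). Probe set 1387338_s_at stayed between 1.2 and 50.9 on all 12 arrays. The decrease of Bcl2l11 therefore rests on 1 probe set.

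Of the tested members, Bcl2l11 had the most negative and Mcl1 the most positive mean change, and the 250 bases before their transcription starts are printed for that reason (RefSeq, GRCr8). The Bcl2l11 window is chr3:135819792-135820041 on the plus strand and the Mcl1 window is chr2:185907918-185908167 on the plus strand. Capitals mark matches on either strand to 1 of 4 motifs searched: the forkhead (FOXO) core GTAAACA, the AP-1 motif TGANTCA, the cAMP response element TGACGTCA and the GC box GGGCGG.
Bcl2l11: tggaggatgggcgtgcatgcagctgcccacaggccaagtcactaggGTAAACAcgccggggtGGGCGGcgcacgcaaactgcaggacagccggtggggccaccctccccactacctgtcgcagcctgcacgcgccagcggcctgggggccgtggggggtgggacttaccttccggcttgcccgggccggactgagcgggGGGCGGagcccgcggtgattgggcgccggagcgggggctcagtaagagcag
Mcl1: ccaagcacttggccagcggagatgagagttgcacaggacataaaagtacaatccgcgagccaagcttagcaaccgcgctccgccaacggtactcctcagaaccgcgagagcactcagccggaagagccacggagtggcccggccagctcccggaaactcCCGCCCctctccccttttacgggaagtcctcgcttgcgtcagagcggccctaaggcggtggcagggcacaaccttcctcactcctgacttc

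The Bcl2l11 window holds 1 forkhead core, which begins 204 bases before the start, and 2 GC boxes. FOXO factors are known to drive Bcl2l11 in neurons that lose trophic support. The forkhead core is found in 3.21% of the 33469 promoter windows of the same length and the GC box in 30.5%. The Mcl1 window holds 1 GC box, read on the other strand as CCGCCC, and none of the other 3 motifs. Promoter windows were matched for 8 of the member genes, 11 windows in all with 4 for Bcl2l1. The forkhead core was in 2 of these 11 windows, those of Bcl2l11 and Bad, and the GC box in 5. No member window held the AP-1 motif or the cAMP response element, which 6.34% and 1.59% of all windows hold. A match is a run of letters and not a measured binding site.

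Among the guardian probe sets above the filter, those of Mcl1 had the largest changes, and they did not pass the test. Mcl1 is a short-lived protein that restrains Bak1 and Bim, and 2 of its probe sets lay above the filter. Probe set 1372520_at had signals of 2305, 1990 and 1577 with ET-1 in replicates 1, 2 and 3, of 2394, 1963 and 1624 with ET-2, and of 2380, 1949 and 1465 with ET-3, against 1614, 1435 and 1640 in untreated cultures. Under replicate numbers 1 and 2 every endothelin array lay above the untreated one, and under number 3 every one lay below it. Averaged over the endothelins the log2 difference was 0.55 in replicate 1, 0.46 in replicate 2 and -0.08 in replicate 3. The mean log2 change was 0.31 ± 0.09 (95% interval 0.11 to 0.50; limma adjusted p = 0.0704). Without untreated replicate 3 it was 0.50 with an adjusted p of 0.000377 (limma), and without all 4 arrays of replicate number 3 it was 0.50 with an adjusted p of 0.00324. Without ET-3 replicate 3 alone, the change was 0.34 and the limma adjusted p 0.0459. These were the only alternatives in which this probe set passed for the mean, 3 of 20 with the replicate block. Over all 22 alternatives the change lay between 0.19 and 0.50, and with the block the limma adjusted p reached 0.464.

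The second Mcl1 probe set, 1370141_at, ran in the same direction with more spread. Its signals were 514, 217 and 493 with ET-1, 456, 275 and 486 with ET-2 and 514, 313 and 404 with ET-3, against 287, 221 and 441 in untreated cultures. Of the 9 pairs of one replicate number, 7 were higher with endothelin, and the mean log2 change was 0.37 ± 0.14 (95% interval 0.06 to 0.68; limma adjusted p = 0.158). Most of it came from replicate 1, with a mean difference of 0.78, against 0.26 in replicate 2 and 0.06 in replicate 3. Replicate number 1 is also the one with high collagen, Dcn, Lum, Gja1 and Pdgfra signals, and with high Pdgfrb in the endothelin arrays. The part of these in the Mcl1 values was not tested. With replicate means taken off, the 2 Mcl1 probe sets correlated with each other at r = 0.78 over the 12 arrays, and with Bcl2l11 at -0.70 and -0.69. The arrays share the same treatments, so these correlations describe the contrast already given.

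Bcl2l1, the guardian Bcl-xL on which many adult neurons depend, did not pass the test with any endothelin. Probe set 1370812_at had signals of 641, 607 and 465 with ET-1, 641, 507 and 488 with ET-2 and 683, 619 and 434 with ET-3, against 498, 586 and 499 in untreated cultures. Replicate 1 was higher with every endothelin and replicate 3 lower with every endothelin, and the mean log2 change was 0.09 (95% interval -0.13 to 0.30; limma adjusted p = 0.662). Its other 2 probe sets lay below the filter, at 35.0 to 161.5 for 1370485_a_at and 1.47 to 72.9 for 1369180_at.

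Bcl2l2, the guardian Bcl-w, likewise did not pass. Probe set 1393707_at had 1275, 1766 and 1321 with ET-1, 1432, 1703 and 1346 with ET-2 and 1420, 1736 and 1236 with ET-3, against 1649, 1509 and 1293 in untreated cultures. The endothelin arrays were below untreated in replicate 1 and above it in replicate 2, and the mean log2 change was -0.02 (95% interval -0.18 to 0.15; limma adjusted p = 0.918). The second Bcl2l2 probe set, 1369611_at, stayed between 1.52 and 56.9. Bcl2, the founding member of the family, was dim on every array, from 1.49 to 39.6, and was not tested.

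Of the pore formers, Bak1 was represented by 1 probe set below the filter. Its signals were 111.7, 73.4 and 146.2 with ET-1, 74.9, 108.3 and 104.2 with ET-2 and 104.6, 76.2 and 154.5 with ET-3, against 102.4, 85.1 and 96.7 in untreated cultures. The groups overlap and no treatment was apart. With all 31042 probe sets tested, the mean log2 change of Bak1 was 0.12 ± 0.22 (limma adjusted p = 0.856).

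The remaining BH3-only genes did not pass the test with any endothelin. Bbc3, the p53 target Puma, had signals of 841, 1281 and 1116 with ET-1, 843, 1303 and 1162 with ET-2 and 949.9, 1197 and 1103 with ET-3, against 916, 1252 and 1143 in untreated cultures. It was 4 times higher and 5 times lower among the 9 pairs, with a mean log2 change of -0.03 (95% interval -0.15 to 0.10; limma adjusted p = 0.839). Bad, which phosphorylation by survival kinases keeps inactive, had 1686, 1912 and 1656 with ET-1, 1565, 1977 and 1974 with ET-2 and 1942, 1951 and 1949 with ET-3, against 1834, 2079 and 1792 in untreated cultures. Its mean log2 change was -0.05 (95% interval -0.18 to 0.09; limma adjusted p = 0.722), and ET-1 lay below untreated in all 3 replicates, at -0.12 (adjusted p = 0.489).

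Bid, which caspase-8 cleaves into its active form, was read by 1 probe set above the filter, 1377759_at. Its signals were 522, 642 and 603 with ET-1, 495, 621 and 498 with ET-2 and 508, 662 and 553 with ET-3, against 560.1, 615 and 572 in untreated cultures. ET-2 and ET-3 were below untreated in replicates 1 and 3 and above it in replicate 2. The mean log2 change of Bid was -0.05 (95% interval -0.20 to 0.11; limma adjusted p = 0.753). A dim second probe set, 1369683_at, ran from 16.1 to 182.2, with all 4 arrays of replicate 3 above all others.

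**Figure D2:**
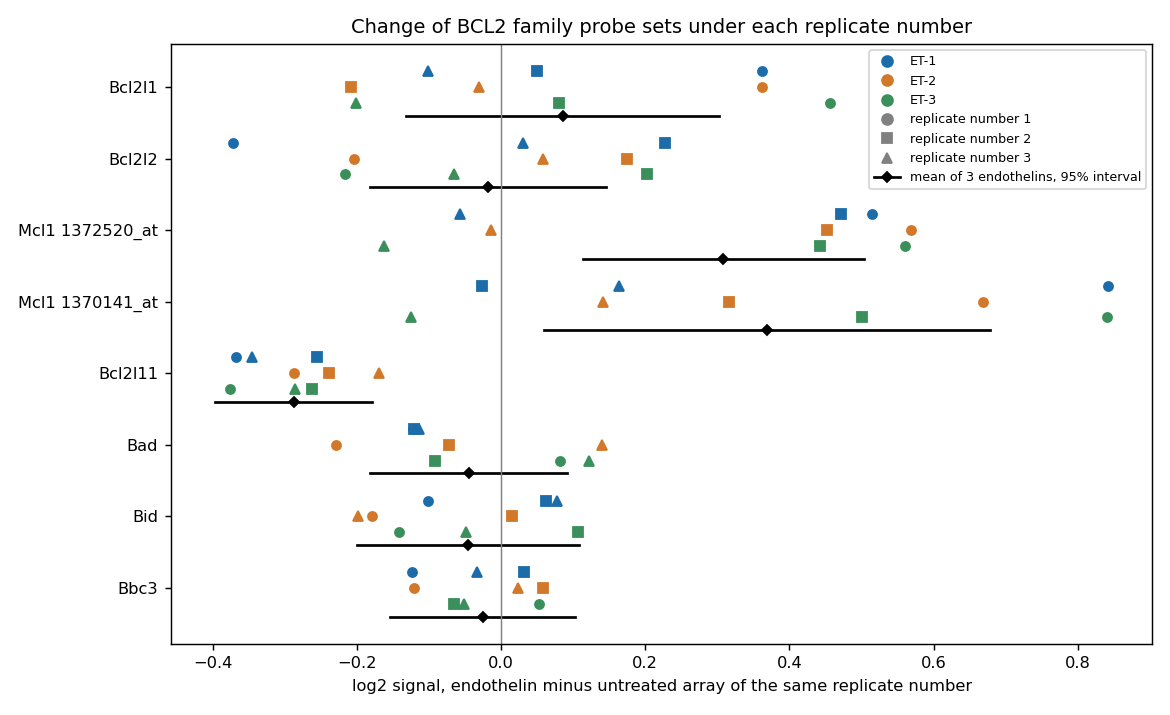
Log2 signal of each endothelin array minus the untreated array of the same replicate number (horizontal) for the 8 probe sets above the filter (vertical), with colours for the endothelin, shapes for the replicate number, and a black diamond and line for the mean over the 3 endothelins and its 95% interval. All 9 Bcl2l11 points lie between -0.38 and -0.17, while the Mcl1 points of replicate 3 lie apart from those of replicates 1 and 2 for 1372520_at.

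In counts, 1 of the 8 tested member probe sets passed with ET-1, Bcl2l11, where 1.73% of all tested probe sets did, 1.51% higher and 0.219% lower. None of the 8 passed with ET-2, where 1.6% of all did, 1.28% higher and 0.322% lower. An unadjusted p under 0.05 (limma) was held by 2 of the 8 with ET-1 and 2 with ET-2, against 15.5% and 16.3% of all. With ET-3 1 of 8 passed, again Bcl2l11, against 2.64% of all, 2.13% higher and 0.509% lower, and 3 had an unadjusted p under 0.05 (17.8% of all). For the mean of the 3 endothelins it was 1 of 8, against 4.88% of all, 3.54% higher and 1.35% lower, and 3 members had an unadjusted p under 0.05 (limma), against 21.8% of all. All of these comparisons share their untreated arrays, so they are not independent. The median log2 change over the 8 member probe sets was -0.01 with ET-1, -0.002 with ET-2, 0.008 with ET-3 and -0.02 for the mean, against -0.03, -0.02, -0.03 and -0.03 over all tested probe sets. Bcl2l11 lay low in the distribution of the mean change, with 2.75% of all tested probe sets below it.

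**Figure D3:**
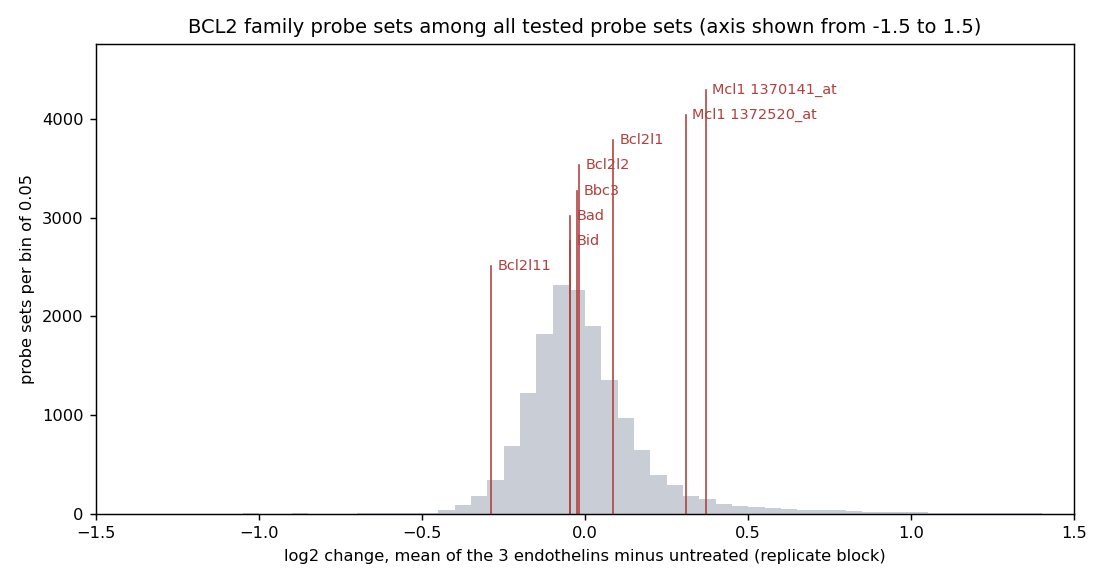
Number of tested probe sets (vertical) by log2 change, mean of the 3 endothelins minus untreated, in bins of 0.05 (horizontal), with the 8 BCL2 family probe sets as red lines whose height carries no value. Bcl2l11 at -0.29 and the Mcl1 probe sets at 0.31 and 0.37 lie toward the edges of the bulk, and the other 5 lie between -0.05 and 0.09.

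The 3 endothelins were also compared with each other at their shared dose of 100 nM and time of 24 h. ET-1 and ET-2 act on both endothelin receptors, whereas ET-3 prefers the B receptor. None of the 8 member probe sets above the filter passed in any of the 3 pairs, and none of them had an unadjusted p under 0.05 (limma). Over all tested probe sets 0% passed in each pair, with an unadjusted p under 0.05 for 3.7% in ET-2 against ET-1, 2.24% in ET-3 against ET-1 and 3.76% in ET-3 against ET-2. Bcl2l11 differed by 0.09 between ET-2 and ET-1 (95% interval -0.04 to 0.22), by 0.01 between ET-3 and ET-1 (-0.12 to 0.15) and by -0.08 between ET-3 and ET-2 (-0.21 to 0.06). Over the 8 member probe sets the 95% intervals reached from -0.33 to 0.43 for ET-2 against ET-1, from -0.30 to 0.46 for ET-3 against ET-1 and from -0.35 to 0.41 for ET-3 against ET-2. These widest intervals belong to Mcl1 1370141_at. The weaker Bcl2l11 value with ET-2 is therefore not shown to differ from those with ET-1 and ET-3.

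For all 8 tested member probe sets more of the variance lay between replicate numbers than between groups. In the same fit, 7 of the 8 member probe sets differed among the 3 replicate numbers (limma F test, adjusted p from 5.48e-08 for Bcl2l11 to 0.0150 for Bcl2l1), and 72.9% of all tested probe sets did. Bad was the exception (adjusted p = 0.0785). Averaged on the log2 scale over the 4 groups, Bcl2l11 had a signal of 1338 in replicate 1, 1637 in replicate 2 and 864 in replicate 3, which is a 1.90-fold span. Bbc3 followed another order, at 886, 1258 and 1131, and Mcl1 1372520_at had a different one again, at 2145, 1818 and 1575. Of the variance of Bcl2l11, 89.4% lay between replicate numbers, 10.1% between groups and 0.527% in the remainder. For Mcl1 1372520_at the shares were 49.9%, 27.4% and 22.6%. The medians over all tested probe sets were 68.7% between replicate numbers and 10.4% between groups.

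**Figure D4:**
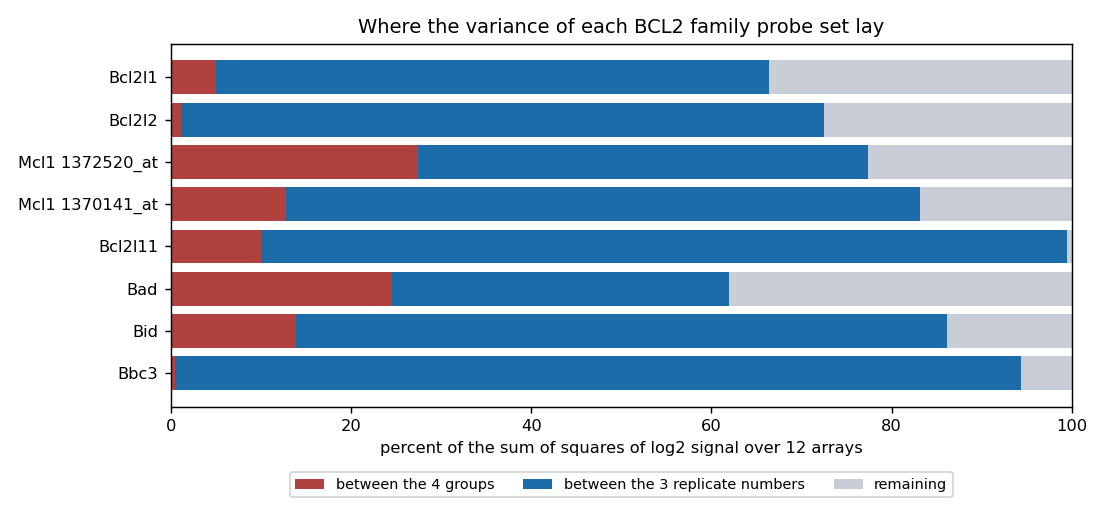
Share of the sum of squares of log2 signal over the 12 arrays (horizontal, percent) that lay between the 4 groups, between the 3 replicate numbers and in the remainder, for the 8 BCL2 family probe sets above the filter (vertical). Bcl2l11 has the smallest remainder of the 8, at 0.527%, and 89.4% between replicate numbers.

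With the replicate means taken off, the 5 genes whose pattern over the 12 arrays was most like that of Bcl2l11 were Trrap (r = 0.96), Stard10 (0.95), Usp9x (0.95, probe set 1389316_at), Prrg3 (0.93) and Hmbox1 (0.93). Their mean log2 changes with the endothelins lay between -0.34 for Prrg3 and -0.18 for Usp9x. These genes were picked for their likeness over the same arrays, so a fall like that of Bcl2l11 follows from the choice and is no further result. Usp9x encodes a deubiquitinase known to stabilise the Mcl1 protein. This Usp9x probe set fell by 0.18 ± 0.04 (limma adjusted p = 0.0274), while its 2 other probe sets above the filter had mean changes of -0.14 and 0.01 and did not pass.

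In the pathway lists each gene is represented by its brightest probe set. Over all tested probe sets 1.73% passed with ET-1, 1.6% with ET-2, 2.64% with ET-3 and 4.88% for the mean. Of 16 other family genes 8 were tested and none passed with any endothelin or for their mean. The largest was Hrk (Harakiri), a BH3-only gene of neurons, with a mean log2 change of -0.27 ± 0.08, lower in 9 of 9 pairs (limma adjusted p = 0.0627). Bcl2l12, whose signal was higher in 9 of 9 pairs (5.59% of all tested probe sets were), stood at 0.21 ± 0.11 (limma adjusted p = 0.297), and the mitochondrial BH3-like genes Bnip3 and Bnip3l were at -0.03 and -0.07. The median of the 8 for the mean of the endothelins was 0.01, against -0.03 over all tested probe sets.

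Of 18 genes of the mitochondrial apoptosis machinery, which covers caspases, apoptosome parts and inhibitors of apoptosis, 12 were tested and 1 passed. Birc2, which encodes the inhibitor of apoptosis cIAP1, fell by 0.36 ± 0.08 with ET-2 (limma adjusted p = 0.0441), where 1.28% of all tested probe sets passed higher and 0.322% lower. Its signals were 878, 643 and 901 with ET-1, 692, 558 and 745 with ET-2 and 684, 609 and 848 with ET-3, against 889.9, 726 and 939 in untreated cultures. The untreated array was the highest under each replicate number. Birc2 kept the call in 3 of 23 alternatives. It lost it with quantile normalization (limma adjusted p = 0.0635), with all probe sets tested (0.0671), without the replicate block (0.9998) and without any 1 array other than ET-3 replicate 1. The related inhibitor Birc3 (cIAP2) was higher in 9 of 9 pairs at a mean of 0.25 ± 0.17, short of the threshold (limma adjusted p = 0.402), and Xiap was at -0.22 ± 0.11 (0.274). The median over the 12 was -0.02.

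Among 26 upstream regulators and binding partners of the family, 18 were tested and none passed by its brightest probe set. Usp9x is in this list, and its dimmer probe set 1389316_at did pass for the mean (limma adjusted p = 0.0274). Foxo3, the forkhead factor that drives Bcl2l11 in neurons, was at -0.12 ± 0.05 (limma adjusted p = 0.173) and lower in 9 of 9 pairs. The JNK genes Mapk8 and Mapk9 were at -0.14 ± 0.05 (0.109) and -0.16 ± 0.07 (0.187). The stress factor Ddit3 (CHOP), which can induce Bcl2l11 under endoplasmic reticulum stress, was at -0.10 ± 0.05 (limma adjusted p = 0.279). The list's changes ran from -0.20 for Gsk3b (limma adjusted p = 0.151) to 0.09 for Akt1 (0.482), with a median of -0.06. In the death receptor pathway 4 of 12 genes were tested and none passed. Cflar, an inhibitor of caspase-8, was at 0.27 ± 0.11 (limma adjusted p = 0.170), and the receptor Tnfrsf21 (DR6) at -0.16 ± 0.06 (0.160).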

How the data were processed

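The members, the gene lists and the replicate block as the main design were chosen with earlier results of these data known, among them that a fit without the block calls no probe set. The authors deposited 1 linear intensity for every probe set on each array, made with MAS5 per the submitters' processing notes; the MAS5 version is not given in the sources used here. Trimmed means (2% at each end) ran from 496.7 to 498.3 and medians from 136 to 181, so the trimmed means nearly coincide; detection calls were not used. Gene names came from the platform annotation where it gave 1 symbol (20826; 436 had several and 9780 none), and all 16 member probe sets kept their symbol in the RefSeq gene table. The endothelin receptors were not analysed here.

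Intensities were taken as log2 without further normalization. The 15521 probe sets at or above the median mean log2 signal (a signal of 147.5) were tested with limma 3.58.1 in R 4.3.3: 4 group means with the replicate number as a block, and eBayes with intensity trend. Same-numbered arrays deviated together from their group means (r from 0.684 to 0.912 over 18 pairs), which pairs them. The labels do not say what a number stands for. With the block, p-values measure the spread left between these arrays once group and replicate-number means are taken off. The block left 6 residual degrees of freedom and a median residual SD of 0.127, against 8 and 0.250 without it. Without it no probe set was called. The fit was also run on simulated data with independent noise and the replicate means kept in. That run cannot test the choice of the block, because the block was built into the data.

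Every member probe set is named; other list genes were named if past the threshold, with the brightest probe set standing for a gene, and further genes were named after their values were seen. Alternatives were no replicate block, median centring, quantile normalization, a pseudocount of 50, no filter, no trend, only the groups compared, and leaving out arrays or replicate numbers. The number of arrays limits the precision.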

Additional observations from a re-analysis of the deposited data

How the results depend on the processing

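The direction of Bcl2l11 with each endothelin and for their mean was the same under all alternatives tried, between -0.36 and -0.20 on the log2 scale, but its call was not. With the replicate block it passed for the mean of the endothelins in 18 of 20 alternatives, missing the threshold without replicate number 1 (limma adjusted p = 0.116) and without replicate number 2 (0.0831), and it passed with ET-1 in 12 of 21 and with ET-3 in 12 of 21. Without the replicate block and without centring, 0 members had an unadjusted p under 0.05 (limma) with ET-1, ET-3 or for the mean. The number of member probe sets past the threshold went from 1 to 0 without the replicate block, centred on array medians or not (limma). This was so for ET-1, ET-3, the mean and the F test over 4 groups. That number was also 0 with no intensity trend and with only the groups compared for ET-1 and ET-3. For the F test it was 0 with quantile normalization, with all probe sets tested and with no trend. With median centring it was 1 for ET-2, where Bcl2l11 was at -0.33 (adjusted p = 0.0277). Leaving out single arrays or replicate numbers gave 0 to 2 members for ET-1, ET-3 and the mean, 0 to 1 for ET-2 and the F test over groups, 0 to 0 for each pair of endothelins and 4 to 8 for the F test over replicate numbers; each 2 is Bcl2l11 with Mcl1 1372520_at, which without replicate number 3 also passed with each single endothelin where Bcl2l11 did not. Among tested probe sets at large, ET-1 called 268, ET-2 249, ET-3 410, the mean 758 and the F test 205; without the block each called 0, without trend 123, 71, 170, 438 and 38, and with only the groups compared 78, 56 and 56 for the 3 endothelins. With all probe sets tested, ET-2 called 135 and ET-3 273. On the log2 scale the array medians lay above untreated by 0.02 with ET-1, 0.10 with ET-2, 0.05 with ET-3 and 0.06 for the mean. Median centring takes such a shift off every log2 change. It moved the split of ET-2 from 199 higher and 50 lower to 193 and 1025. The split of the mean went from 549 and 209 to 426 and 1066, and the F test count to 123. Leaving out arrays gave 23 to 575 for ET-1, 27 to 404 for ET-2, 43 to 685 for ET-3, 224 to 1014 for the mean and 14 to 320 for the F test. Of 751 single-gene values recomputed, 641 kept direction and side of the threshold, 46 lost the call, 10 gained it and 54 uncalled values changed sign. The causes were not tested.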
